A study of Mus musculus with 8 samples.

Results

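The gamma-crystallin genes of the mouse (Cryga, Crygb, Crygc, Crygd, Cryge, Crygf, Crygn and Crygs) were examined for chromatin loops, topologically associating domains (TADs) and CTCF binding in the newborn lens, both its epithelium and its fiber cells, with ES cells as the reference. The 8 genes were chosen by name out of 21887 protein-coding genes on chromosomes 1 to 19, X and Y. For each gene, loops with an anchor within 100 kb of the gene body, loops that spanned it, TADs that touched it and CTCF peaks within 100 kb were collected. Hi-C, which counts contacts between distant DNA segments, was done on 2 replicates each of v6.5 mESC, a wild-type (WT) mouse ES cell line kept without feeder cells and with LIF, and of epithelium and fiber cells dissected from lenses of CD-1 mice at postnatal day 0.5. For CTCF ChIP-seq the labels list 1 sample of each lens cell type. The methods of the study speak of biological replicates, so that a peak list may pool several. The paper describes the ES line as male and of mixed strain. ES cells and lens thus differed in mouse strain, and in culture against tissue, as well as in cell type, and these cannot be told apart. Each lens Hi-C replicate pooled 30 lenses, and 200 lenses were dissected for ChIP-seq.

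The deposited loops and TADs came as 1 list per cell type from merged replicates. The spread between replicates was therefore unknown, and cell types were not tested against each other. The lists held 8459 loops and 3604 TADs in ES cells, 8005 loops and 1796 TADs in epithelium, and 7682 loops and 2641 TADs in fiber cells. They held 16433 CTCF peaks in epithelium and 23868 in fiber cells, and the TAD and CTCF lists thus differed in length between the lens cell types. The depth of the maps and of the ChIP-seq reads is not in these lists. The paper calls the total Hi-C contacts of the cell types similar, with a far smaller share between chromosomes in ES cells. The share within chromosomes, where loops are called, was thus larger in ES cells, and its effect on the loop lists was not tested. A loop absent from a list was not called there, which does not mean that its anchors made no contact. The lists carry no expression, so the labelled cell types could not be checked against marker genes.

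Crystallins are the main soluble proteins of the lens and give it its refractive power. The gamma-crystallins are small monomeric members of the beta/gamma family, and most of them are made in large amounts by differentiating fiber cells, whereas gamma-S is the member known from the mature lens and gamma-N stands between the beta and gamma branches. Mutations in several of them cause cataract. Chromatin loops form between anchors that are often bound by CTCF, a zinc finger protein at which loop extrusion by cohesin halts. TADs are stretches of chromosome whose parts contact each other more than their surroundings.

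Coordinates are on mm10, the build in the submitters' processing notes, which is the same assembly as the GRCm38 gene table used here, and are counted from 1. Of the 8 genes, 5 formed a compact block of 54.8 kb on chromosome 1, from 65048555 to 65103363. In chromosome order the block held Cryge, Crygd, Crygc, Crygb and Cryga, all on the minus strand, with gaps of 10.0, 8.08, 6.69 and 18.1 kb between neighbours. The nearest protein-coding genes outside it were Akr1cl, an aldo-keto reductase gene 15.8 kb to the left, and D630023F18Rik 1.92 kb to the right. Crygf also lay on chromosome 1, from 65926522 to 65928311 on the plus strand, but 823 kb from Cryga, and it is described apart from the block. Crygn lay on chromosome 5, from 24751002 to 24757848, and Crygs on chromosome 16, from 22805203 to 22811410, both on the minus strand. The gene bodies measured between 1603 bp (Crygd) and 6847 bp (Crygn).

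The bases just before the start of each gene show how closely the chromosome 1 genes resemble each other and how far the lone genes Crygn and Crygs stand from them. The sequences are those of RefSeq on GRCm38.p6, 110 bases up to the last base before the start, written 5′ to 3′ along the gene. All 8 genes matched the promoter table, but Cryge is not shown, because the start in that table, at 65051163, lies inside its annotated gene body. Capitals mark the run of T and A that holds the last TATA and, where present, the letters TTTGTG.
Cryga, chr1:65103364-65103473, minus strand: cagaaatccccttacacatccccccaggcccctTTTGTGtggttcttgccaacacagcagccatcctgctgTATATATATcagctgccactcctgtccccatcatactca
Crygb, chr1:65082291-65082400, minus strand: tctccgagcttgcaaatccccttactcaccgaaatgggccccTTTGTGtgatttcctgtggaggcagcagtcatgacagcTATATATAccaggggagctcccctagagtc
Crygc, chr1:65073533-65073642, minus strand: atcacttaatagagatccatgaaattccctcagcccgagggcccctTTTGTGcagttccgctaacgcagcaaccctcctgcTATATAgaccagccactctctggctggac
Crygd, chr1:65063441-65063550, minus strand: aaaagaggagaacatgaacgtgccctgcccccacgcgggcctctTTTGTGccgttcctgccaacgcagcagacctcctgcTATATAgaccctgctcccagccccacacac
Crygf, chr1:65926412-65926521, plus strand: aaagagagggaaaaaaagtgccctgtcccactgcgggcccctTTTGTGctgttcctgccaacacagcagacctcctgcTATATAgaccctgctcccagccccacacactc
Crygn, chr5:24757849-24757958, minus strand: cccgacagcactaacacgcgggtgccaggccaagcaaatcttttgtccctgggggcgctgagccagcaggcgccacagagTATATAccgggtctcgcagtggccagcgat
Crygs, chr16:22811411-22811520, minus strand: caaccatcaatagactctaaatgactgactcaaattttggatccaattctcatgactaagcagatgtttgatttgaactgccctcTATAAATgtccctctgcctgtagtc

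The letters TATATA, searched on both strands of the 250 bases before the start, occurred in 7 of the 8 genes and in 5.25% of 32851 RefSeq promoter windows of the same length. Crygs alone lacked them and had TATAAAT in that place. TTTGTG occurred in the 6 chromosome 1 genes, in neither Crygn nor Crygs, and in 15.6% of all windows. In the 6 chromosome 1 genes TTTGTG began 35 to 38 bases before a TATATA, and no other of the 32851 windows held the pair at this distance, which is 6 windows or 0.0183%. The letters and the distance were read from these genes, so that this count describes them and tests nothing. TGCTGA, the core of the site bound by Maf proteins, which drive crystallin genes in fiber cells, occurred in Cryga, Crygc, Crygn and Crygs and in 16.1% of all windows.

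Over the 250 bases, the closest pair was Cryge and Crygf, with 80.7% of aligned positions identical, although 823 kb or more separates Crygf from every gene of the block. Crygd came next, with 65.6% identity to Crygf and 61.0% to Cryge. The other chromosome 1 pairs ranged from 50.2% to 58.5%, and the 13 pairs with Crygn or Crygs from 40.8% to 48.6%. Crygn and Crygs were the least alike, at 40.8%. The longest run of identical bases in the 300 base windows reached 78 between Crygd and Cryge, longer than a single-end ChIP-seq read of this study. The authors kept only uniquely mapped reads, and how much signal was lost at such stretches was not tested.

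At least 1 loop anchor lay within 100 kb of 6 of the 8 genes in ES cells, against 77.6% of all protein-coding genes. In epithelium it was 7 of 8 against 75.6%, and in fiber cells 6 of 8 against 73.5%. Crygf had no such anchor in any list, and Crygn had one in the epithelium list alone. These shares lay near those of all genes. The genes of the block share 1 neighbourhood and thus mostly the same loops. Counted once each, the nearby loops numbered 8 in ES cells, 8 in epithelium and 7 in fiber cells, at the block, Crygn and Crygs.

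At the block, ES cells had 4 loops with an anchor within 100 kb, and each lens cell type had 3. The 3 lists had a loop on the right in common, but not the loops of up to 3 Mb over the block. Next to Cryga, a short loop joined D630023F18Rik to Idh1, the gene of the cytosolic isocitrate dehydrogenase, in every list. In ES cells it spanned 65 kb with 47 observed contacts against 17.0 expected from the surrounding donut, a ratio of 2.76 (2.03 to 3.67, 95% Poisson interval of the observed count). In epithelium the same pair of 5 kb anchors held 31 contacts against 7.85, a ratio of 3.95 (2.68 to 5.61). In fiber cells it was called with 10 kb anchors, at 72 contacts against 31.0, a ratio of 2.32 (1.82 to 2.92). The intervals of ES cells and epithelium overlapped, and the fiber value, at another anchor width, is not comparable with them. The highest of the 4 false discovery rates was 0.0142 in ES cells, 0.0107 in epithelium and 0.000629 in fiber cells, so that at a limit of 0.01 the loop would stay in fiber cells alone. All Poisson intervals here cover counting error only.

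Only the ES cell list had loops of up to 3 Mb that spanned the block. The shorter had an anchor over the 3′ part of Cryge, from 65040001 to 65050000, and met Idh1 130 kb away. It took in all 5 genes and held 68 contacts against 26.1 expected, a ratio of 2.61 (2.03 to 3.31), and 2.14 times the highest of its 4 expected counts. The longer joined Fzd5, a Wnt receptor gene, to the same Idh1 end over 440 kb, with 17 contacts against 4.15, a ratio of 4.09 (2.38 to 6.55) and a false discovery rate of 0.0473. At a limit of 0.01 on all 4 rates this loop would be lost, and so would 2 others near the block in ES cells, D630023F18Rik to Idh1 (highest rate 0.0142) and a loop from Ccnyl1 (0.0450), while the loop over Cryge would stay (0.00497). Neither spanning loop had a counterpart in a lens list, at a tolerance of 10 or 25 kb between anchor midpoints. Loops of this size spanned 49.9% of all protein-coding genes in ES cells, 42.4% in epithelium and 41.2% in fiber cells. Over all 8 genes, 6, 2 and 2 were spanned in this order of cell types.

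**Figure D1:**
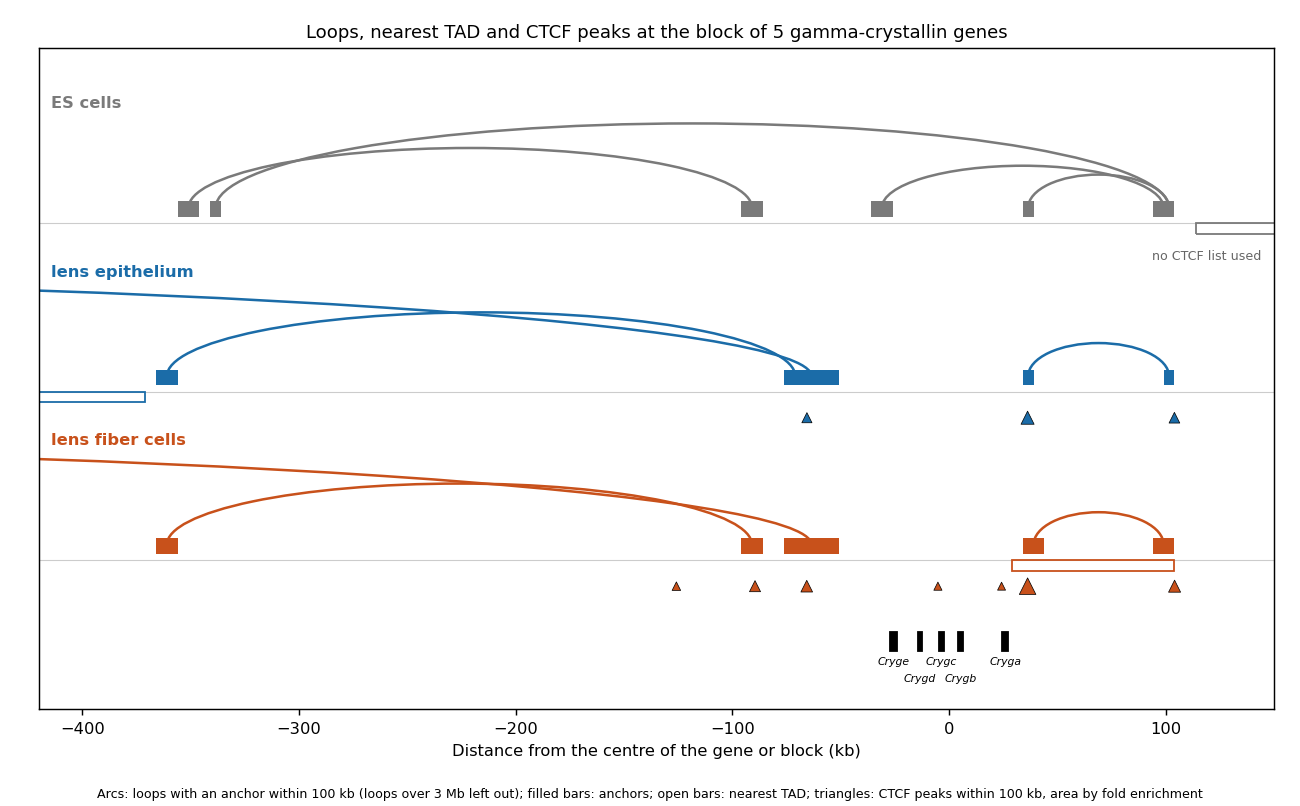
The block of 5 genes on a scale of distance in kb from its centre, with ES cells, epithelium and fiber cells from top to bottom. Arcs join the midpoints of loop anchors (filled bars), open bars show the nearest TAD where it falls in view, triangles show CTCF peaks with area by fold enrichment, and black boxes are the genes. The loop on the right appears in the 3 lists, arcs over the genes in ES cells only, and the long arcs that leave on the left in both lens lists only.

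On the left of the block the lens lists shared a loop that ES cells lacked. It ran over 1350 kb from Dytn to Akr1cl, with an anchor that ended 23.6 kb from Cryge. Epithelium had 48 contacts against 16.2 expected, a ratio of 2.96 (2.18 to 3.93), and fiber cells 64 against 20.6, a ratio of 3.11 (2.40 to 3.98). The ratios were nearly the same, and the anchors were 25 kb wide in both lists. The highest of the 4 false discovery rates was 0.0104 in epithelium and 0.000244 in fiber cells. A shorter loop from Ccnyl1, a cyclin Y-like gene, ended left of Akr1cl in every list, but not at the same place. It ended at 64990000 in ES cells and fiber cells, over 260 and 270 kb, and at 65010000 in epithelium, over 290 kb. The ratios were 2.60 (2.04 to 3.26) in ES cells, 3.85 (2.83 to 5.12) in epithelium and 2.81 (2.19 to 3.55) in fiber cells. At 10 kb the epithelium loop had no counterpart, and at 25 kb it matched both others.

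No TAD touched any gene of the block in any list. All protein-coding genes were touched in 39.6% of cases in ES cells, 20.8% in epithelium and 29.0% in fiber cells. The nearest TAD in fiber cells, of 75.0 kb from 65105001 to 65180000, began 1.64 kb beyond Cryga and ran to Idh1, along the short loop in common. In ES cells the nearest, of 85.0 kb, lay 86.6 kb away over Pikfyve, a lipid kinase gene. In epithelium it lay 344 kb away.

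CTCF peaks within 100 kb of the block numbered 3 in epithelium and 7 in fiber cells. None of these called peaks lay on the body of its 5 genes, and signal outside called peaks was not measured. In both lists the highest peak stood 8.7 kb from the 5′ end of Cryga, inside D630023F18Rik and at the left anchor of the short loop. Its fold enrichment over background was 10.5 in epithelium, at the 97.5 percentile of that list, and 16.8 in fiber cells, at the 99.7 percentile. It covered the start of the noncoding gene Gm36358, whose promoter window, chr1:65112033-65112332 on the plus strand, gives the sequence under the summit.
Gm36358: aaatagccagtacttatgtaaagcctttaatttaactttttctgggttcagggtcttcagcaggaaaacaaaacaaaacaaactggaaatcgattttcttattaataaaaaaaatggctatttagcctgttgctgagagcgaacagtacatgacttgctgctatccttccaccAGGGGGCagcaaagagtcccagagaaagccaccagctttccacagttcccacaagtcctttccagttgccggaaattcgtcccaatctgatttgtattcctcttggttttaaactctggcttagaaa
Capitals mark the only match to AGGGGGC, a stretch of the CTCF motif, on either strand. The match, at 65112206 to 65112212, lay 11 bp from the summit in epithelium and 25 bp from that in fiber cells. It reads along the plus strand, away from the block and toward the other anchor of the short loop, at Idh1. These letters occurred in 10.6% of all 300 base windows and, among the 8 gamma-crystallin genes, in that of Cryga.

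The other shared peaks stood 38.1 kb left of Cryge, at the Akr1cl anchor of the 1350 kb lens loop (fold enrichment 6.27 in epithelium and 8.36 in fiber cells), and 76.6 kb right of Cryga at Idh1 (7.03 and 8.90). Both anchors of the D630023F18Rik to Idh1 loop thus held a peak in each lens list, and so did both anchors of the 1350 kb loop. Of the 4 peaks in the fiber list alone, a pair lay between the genes of the block. The peak 648 bp from the 3′ end of Crygc had a fold enrichment of 4.07, and that 77 bp from the 3′ end of Cryga 3.90. They ranked at the 3.70 and 2.28 percentiles of the fiber list and lay at no loop anchor. A stronger peak of the fiber list alone, with a fold enrichment of 7.53, stood 61.9 kb from Cryge under the anchor at which the Ccnyl1 loop of fiber cells and ES cells ended. The epithelium loop, which ended elsewhere, had no epithelium peak inside either anchor, but its right anchor ended at 65010000 and the shared peak left of Cryge began at 65010236.

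Crygf had a different neighbourhood from the block. It had no loop anchor and no CTCF peak within 100 kb in any list, whereas each of the other 7 genes had a peak in both lens lists. Of all protein-coding genes, 81.2% had a peak within 100 kb in epithelium and 88.2% in fiber cells. The nearest anchors lay 147 kb away in ES cells, 172 kb in epithelium and 152 kb in fiber cells. The nearest peaks were 272 kb away in epithelium and 172 kb in fiber cells. The gene stood within a wide interval without other protein-coding genes, 537 kb from Pth2r, a receptor gene, and 247 kb from Map2, which encodes a neuronal microtubule protein.

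A loop between Pth2r and a point left of Map2 spanned Crygf in every list. In ES cells it covered 775 kb at 25 kb anchors, with 106 contacts against 31.9 expected, a ratio of 3.32 (2.72 to 4.02). In epithelium it covered 790 kb at 5 kb anchors, with 16 against 2.35, a ratio of 6.80 (3.89 to 11.0). In fiber cells it covered 770 kb at 10 kb anchors, with 38 against 11.2, a ratio of 3.39 (2.40 to 4.66). The anchor widths differed between the 3 lists, so that these ratios are not compared. ES cells and fiber cells matched within 10 kb, and epithelium matched them only within 25 kb. ES cells had a further spanning loop of 1450 kb, from Pikfyve to Rpe and Kansl1l, and fiber cells one of 1325 kb to Unc80, with false discovery rates of up to 0.00201 and 0.0944. No TAD touched Crygf in any list.

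Crygn, the lone gene of chromosome 5, had loop anchors within 100 kb in epithelium alone, from a pair of loops. Both began over Nub1 and Wdr86, 51.0 kb from the gene, spanned Crygn and ended in Prkag2, which encodes a regulatory subunit of AMP-activated kinase. The shorter covered 175 kb with 92 contacts against 43.8 expected, a ratio of 2.10 (1.69 to 2.58). The longer covered 300 kb with 73 against 30.8, a ratio of 2.37 (1.86 to 2.98). Both had 25 kb anchors, and among the epithelium loops of that width their ratios lay at the 14.3 and 39.2 percentiles. Neither had a counterpart in ES cells or fiber cells at 25 kb tolerance. A further epithelium loop of 4625 kb also spanned Crygn, with 13 contacts against 0.12 expected, and was in neither other list. The nearest anchors in ES cells and fiber cells lay 146 and 391 kb from Crygn, and no TAD touched the gene in any list.

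Crygn was also the only gene of the 8 with a CTCF peak on its body, in fiber cells. Of all protein-coding genes, 22.1% carried a peak on the body in epithelium and 32.5% in fiber cells, but of the 4013 genes as long as these 8, 5.21% and 12.2% did. The count of 0 and 1 of 8 was thus close to that of genes of their length. The Crygn peak ran from 24757672 to 24757923 with its summit 17 bp inside the gene from its start, and covered the last 75 of the 110 bases shown above. Its fold enrichment of 3.43 was at the 0.666 percentile of the fiber list, with a −log10 q-value of 1.92. It also overlapped Gm33591, a noncoding gene, and its promoter window held no AGGGGGC on either strand. Around it, peaks in both lists stood 22.4 kb upstream (7.52 in epithelium and 9.59 in fiber cells) and 98.6 kb downstream (4.59 and 10.5), and a peak of the fiber list alone stood 76.5 kb downstream at 6.50.

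Crygs, on chromosome 16, was the only member with a loop anchor over its body in every list. In the block only Cryge lay under an anchor, in ES cells. A 500 kb loop joined Crygs in the 3 lists to a site whose nearest gene was Tra2b, a splicing factor gene. In ES cells it held 78 contacts against 21.0 expected, a ratio of 3.72 (2.94 to 4.65). In epithelium it held 30 against 8.63 at the same 10 kb anchors, a ratio of 3.48 (2.35 to 4.96). In fiber cells it was called at 25 kb anchors with 147 against 45.2, a ratio of 3.25 (2.75 to 3.82). The intervals of ES cells and epithelium, at the same anchor width, overlapped, and the fiber loop is given beside them without comparison.

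**Figure D2:**
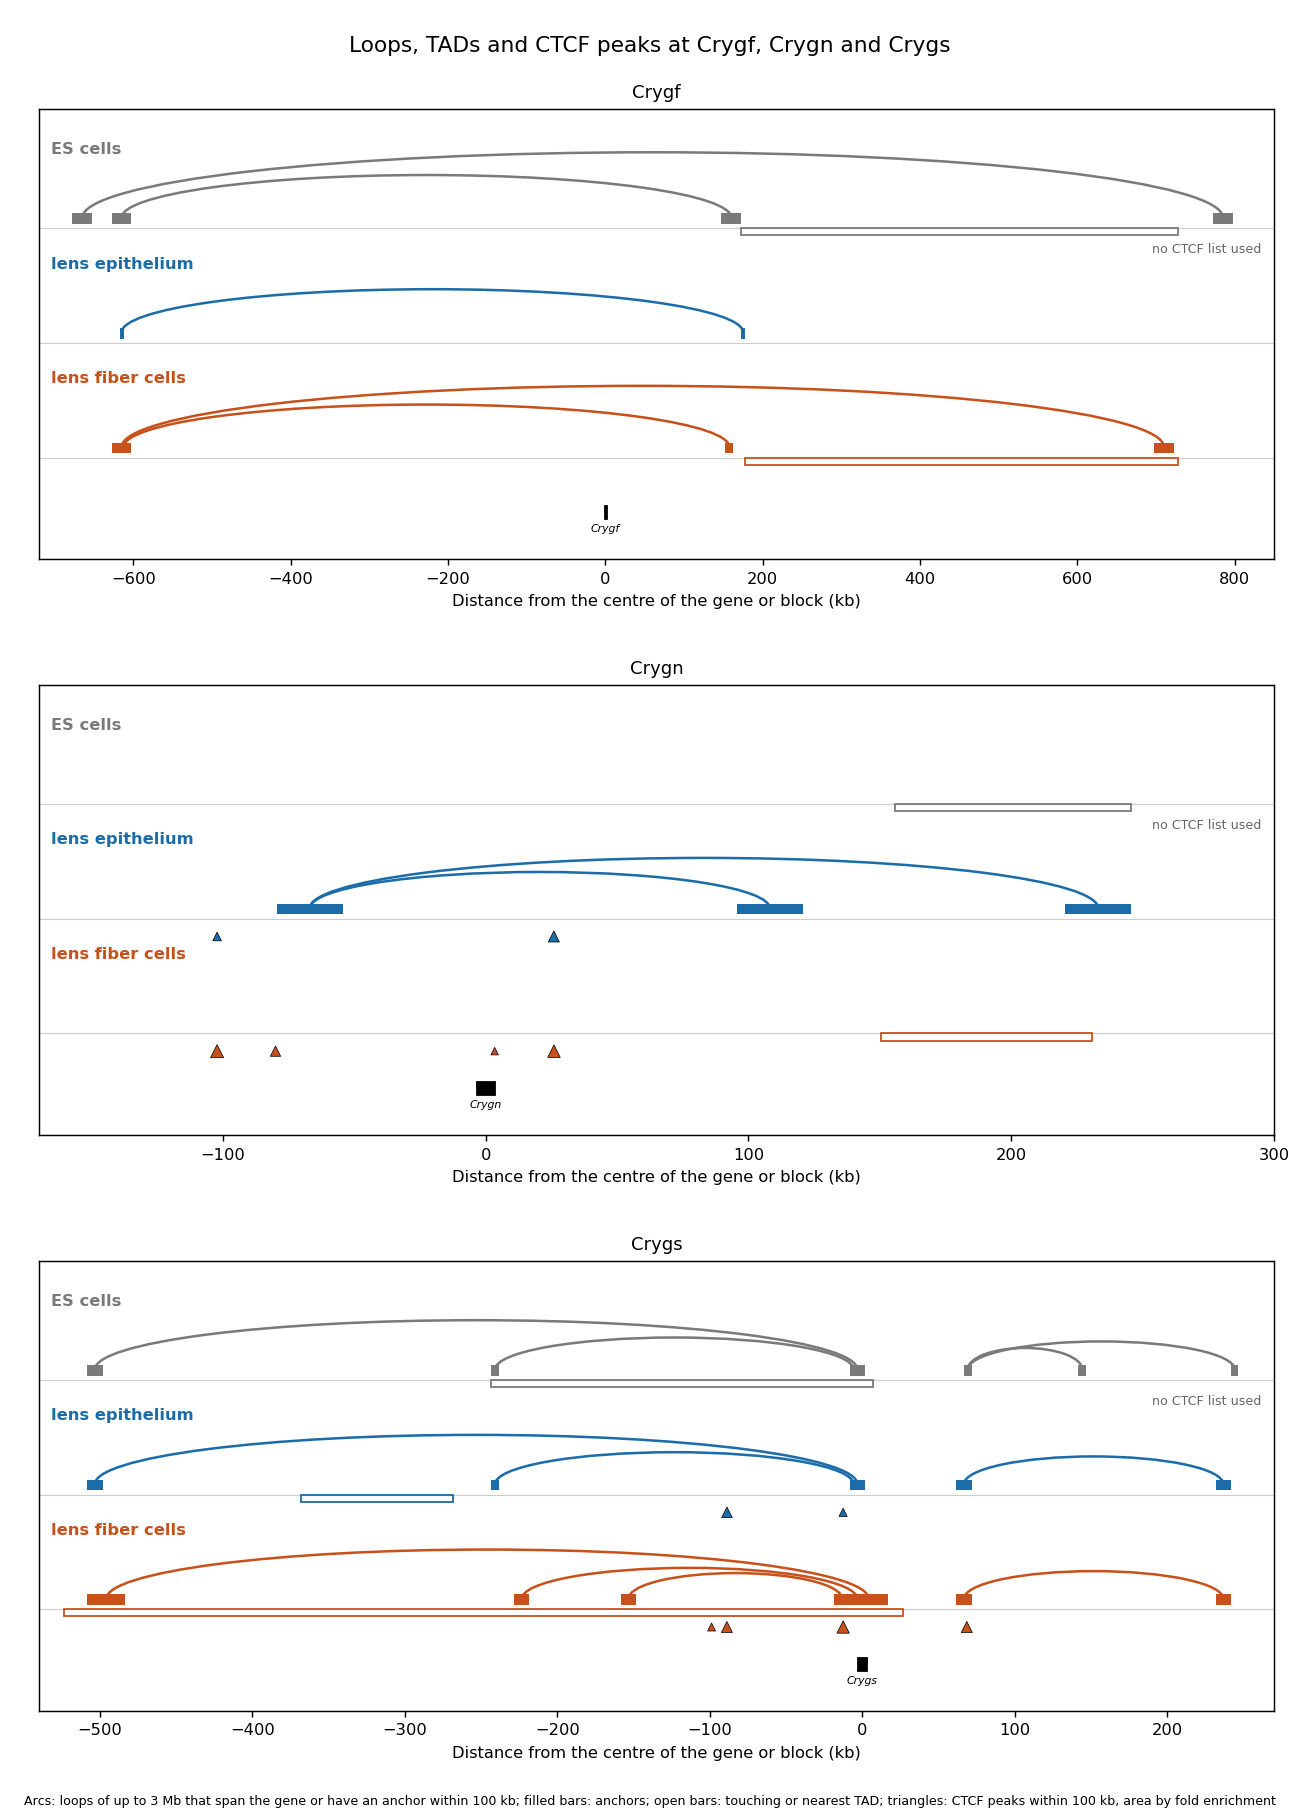
Crygf, Crygn and Crygs, each on its own scale of distance in kb from the centre of the gene, drawn with the symbols of the block map. Arcs span Crygf in the 3 lists, rise over Crygn in epithelium only, and end at Crygs in the 3 lists. Open bars are TADs that touch the gene or lie nearest to it, where in view.

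A shorter loop ran into Dgkg, a diacylglycerol kinase gene to the left, from an anchor that lay over Crygs in fiber cells and ended 203 bp from it in the other lists. It was 235 kb long in ES cells, with a ratio of 3.99 (2.90 to 5.35), and in epithelium, with 4.46 (2.89 to 6.59). In fiber cells it was 220 kb long at 3.44 (2.75 to 4.25) and matched the others only within 25 kb. Its anchors were 10 kb wide there and 5 kb wide in the other lists, so that the fiber ratio is not comparable with theirs. Fiber cells had an additional loop of 140 kb from Dgkg that ended 5203 bp from Crygs, with 65 contacts against 25.7 and a ratio of 2.53 (1.95 to 3.22). Its right anchor held the CTCF peak 9.35 kb downstream of Crygs, whose fold enrichment was 9.39 in fiber cells and 4.12 in epithelium.

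To the right of Crygs, a loop of 170 to 175 kb joined Dnajb11, which encodes a chaperone of the endoplasmic reticulum, to a point beside Kng1 in the 3 lists. The ratios were 3.58 (2.51 to 4.96) in ES cells, 3.41 (2.42 to 4.69) in epithelium and 2.98 (2.18 to 3.99) in fiber cells. The anchors were 5 kb wide in ES cells and 10 kb wide in both lens lists, so that the ES cell ratio is not comparable with the others. A 75 kb loop from Dnajb11 to Hrg, the gene of a plasma glycoprotein, was in the ES cell list alone, at 3.28 (2.35 to 4.44). At Dnajb11, 65.3 kb from Crygs, the fiber list had a CTCF peak with a fold enrichment of 7.53 that the epithelium list lacked. The loop to the point beside Kng1 was in both lens lists, and no CTCF list of ES cells was used.

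Crygs was also the only gene of the 8 inside a TAD. In ES cells the TAD covered 250 kb from 22565001 to 22815000, from Dgkg to Tbccd1, the next gene 1.80 kb away. In fiber cells it covered 550 kb from 22285001 to 22835000, at the 85.2 percentile of TAD sizes in that list. In both lists the gene lay close to the right border. Epithelium had no TAD there, and the nearest ended 265 kb away.

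**Figure D3:**
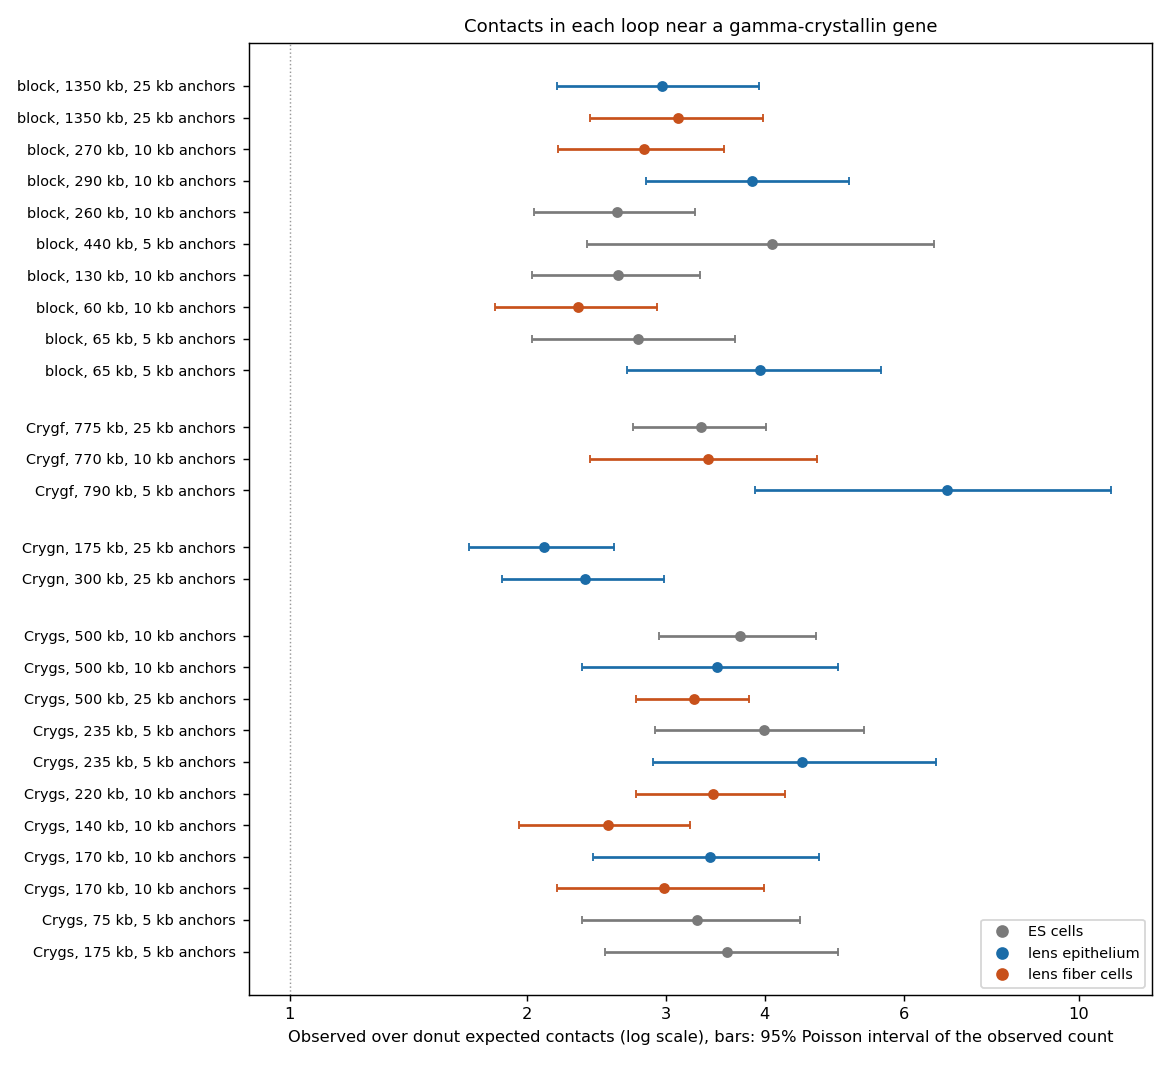
Each point is a loop with an anchor within 100 kb of a gene, or the loop of under 1 Mb that spans Crygf, with its ratio of observed to donut expected contacts on a log axis. Bars are 95% Poisson intervals of the observed count, and the dotted line marks a ratio of 1. The ratios ran from 2.10 for the 175 kb Crygn loop to 6.80 for the Crygf loop, both in epithelium. Anchor widths differ between loops, and ratios at different widths are not comparable.

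Among the nearby loops, the median ratio of observed to expected contacts was 3.43 in ES cells, 3.45 in epithelium and 2.98 in fiber cells, beside 3.06, 3.05 and 2.83 over all loops of each list. Of the 8 loops in ES cells, 4 had a counterpart in epithelium and 4 in fiber cells, against 35.9% and 34.6% of the whole list. Of the 8 in epithelium, 4 were shared with ES cells and 4 with fiber cells, against 37.9% and 55.5%. Of the 7 in fiber cells, 4 were shared with ES cells and 4 with epithelium, against 38.1% and 57.8%. In all, 3 loops were in the 3 lists within 10 kb, namely D630023F18Rik to Idh1 and the 500 kb and 170 to 175 kb loops at Crygs.

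Both anchors held a CTCF peak from the matching ChIP-seq list in 2 of the 8 nearby loops in epithelium, against 15.7% of all loops, and in 2 of 7 in fiber cells, against 39.1%. Neither anchor held one in 4 of 8 in epithelium, against 39.5%, and in 1 of 7 in fiber cells, against 16.6%. In both lens cell types the loops with a peak at both anchors were those of the block, D630023F18Rik to Idh1 and Dytn to Akr1cl. None of the loops at Crygs or Crygn had a peak at both anchors in its own cell type.

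Over the 4 loci, 7 CTCF peaks lay within 100 kb of a gene in epithelium and 15 in fiber cells. All 7 epithelium peaks overlapped a fiber peak, while 27.2% of all epithelium peaks overlapped none. Of the 15 fiber peaks, 8 were in that list alone, against 49.9% of all fiber peaks. The fold enrichment was higher in fiber cells in 7 of the 7 shared pairs, by a median of 1.33 times and at most 2.29 times. Over all 11956 epithelium peaks in both lists it was higher in fiber cells in 73.8%, with a median of 1.21 times. The share of fiber peaks in that list alone was thus close to that of the whole list, and the other shares rest on 7 peaks. With 1 peak list per cell type, no difference was tested.

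**Figure D4:**
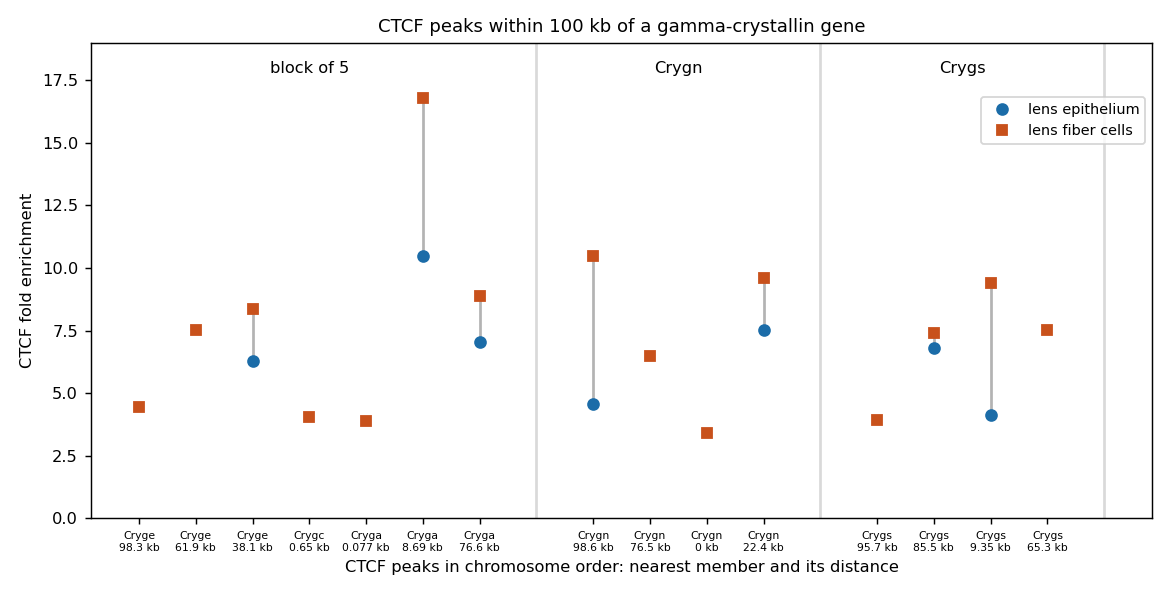
CTCF fold enrichment of each peak within 100 kb of a gene, in chromosome order, with the nearest gene and its distance below. Circles are epithelium, squares fiber cells, and lines join peaks in both lists. The square lies above the circle in each of the 7 pairs, and the highest value, 16.8, is the peak 8.69 kb from Cryga.

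Loops over 3 Mb also spanned the chromosome 1 genes. The 5 genes of the block and Crygf were spanned by the same 4 in ES cells, 2 in epithelium and 3 in fiber cells. The 4 in ES cells held 13 to 22 contacts at 25 kb anchors. A loop of 35260 kb that ended in Spag16 was in both lens lists at identical 5 kb anchors, with 18 contacts in epithelium and 24 in fiber cells, where the donut expectation was 0.0116 and 0.0115. A loop of 99035 kb in epithelium, with 14 contacts against 0.0107 expected, was likewise matched in fiber cells, with 13 against 0.307 at 25 kb anchors. Where so few contacts are expected, a small count gives a very high ratio. Whether these calls mark loops in the nucleus was not tested. With any loop counted, 7 of the 8 genes were spanned in each list, against 81.3% of all protein-coding genes in ES cells, 63.0% in epithelium and 61.1% in fiber cells, and the gene left out was Crygn in ES cells and fiber cells and Crygs in epithelium. In ES cells only a loop of 75500 kb with 14 contacts spanned Crygs. In fiber cells Crygs counted only because the 25 kb anchor of its 500 kb loop lay over it. With the inner ends of the anchors, 6 genes were spanned in fiber cells.

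Beside 8 alpha- and beta-crystallin genes (Cryaa, Cryab, Cryba1, Cryba2, Cryba4, Crybb1, Crybb2 and Crybb3), fewer gamma-crystallin genes lay in TADs. A TAD touched 7 of the 8 alpha and beta genes in ES cells, 2 in epithelium and 4 in fiber cells, and 1, 0 and 1 of the gamma genes. Of all protein-coding genes, 39.6%, 20.8% and 29.0% were touched in this order of cell types. The count furthest from these shares was that of the alpha and beta genes in ES cells. An anchor lay within 100 kb of 6, 7 and 7 of the alpha and beta genes in ES cells, epithelium and fiber cells, and of 6, 7 and 6 of the gamma genes. Loops of up to 3 Mb spanned 3, 4 and 3 of the alpha and beta genes, where 6, 2 and 2 of the gamma genes were spanned. A CTCF peak lay on the body of 2 of the alpha and beta genes in each lens cell type. Since 5 gamma genes share 1 locus and Cryba4, Crybb1, Crybb2 and Crybb3 lie in pairs, these counts are not of independent genes, and they were not tested.

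**Figure D5:**
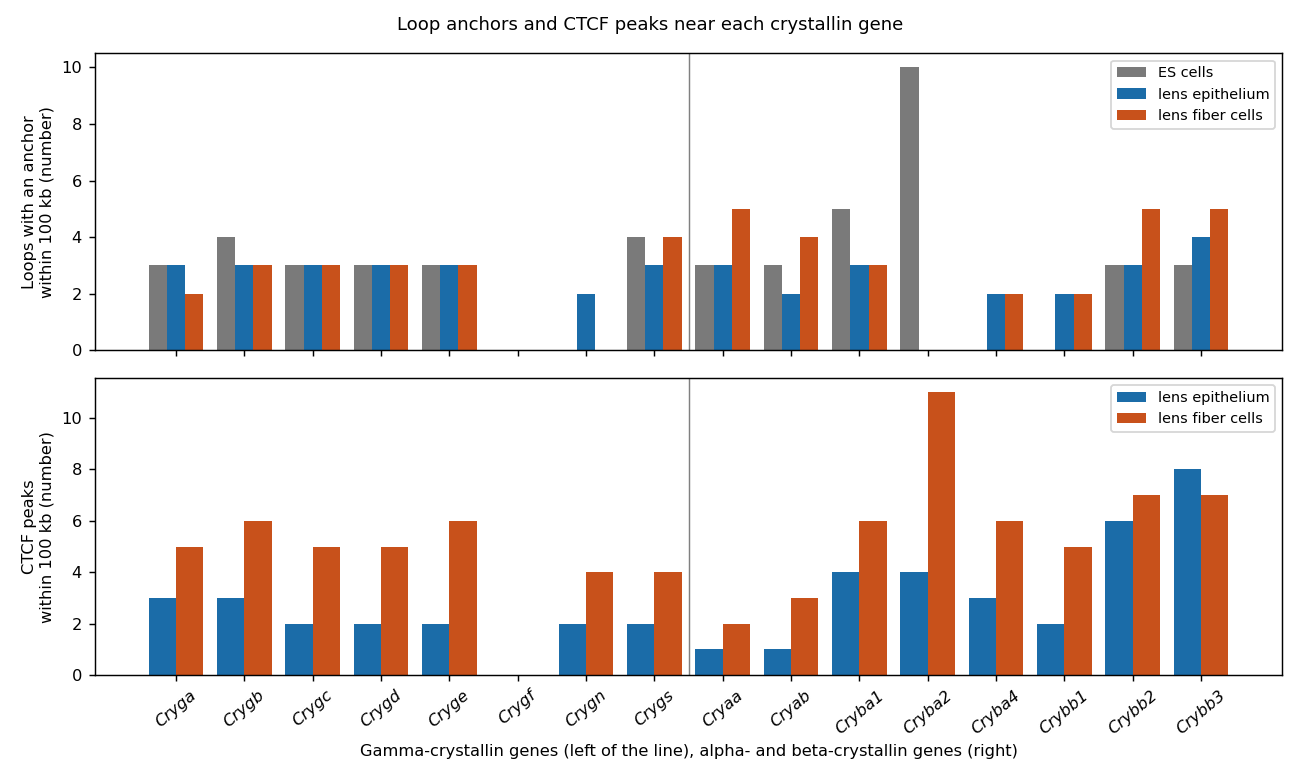
Number of loops with an anchor within 100 kb (top) and of CTCF peaks within 100 kb (bottom) for each crystallin gene, with gamma genes left of the line and alpha and beta genes right of it. Bars are cell types. Crygf is at 0 in each list, and Cryba2 reaches the highest counts, 10 loops in ES cells and 11 peaks in fiber cells.

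Cover of the gene body by called CTCF peaks did not set the gamma-crystallin genes apart. Its median over the 8 genes was 0% in both lens cell types, and 5439 of the 6342 other protein-coding genes of 1 to 10 kb (85.8%) had the same pair of values, so that no most similar gene could be named. Called peaks do not measure broad signal. The paper describes broad CTCF signal at the gamma-crystallin cluster in lens chromatin, and such signal was not examined here.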

How the data were processed

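Hi-C was done on ES cells and both lens cell types, and CTCF ChIP-seq on lens epithelium and fibers. The authors aligned reads with BWA to mm10, merged the 2 Hi-C replicates with Juicer and called TADs with Arrowhead and loops with HiCCUPS (juicer_tools 2.13.06). The observed count in a deposited loop is the raw number of contacts, each of the 4 expected counts was estimated by HiCCUPS from the surroundings, and the false discovery rates are q-values. MACS2 made the deposited CTCF peaks, each with a score, a fold enrichment and the −log10 of its p-value and q-value.

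Samples were grouped by their labels. The members, gene lists and rules were chosen with earlier results of these data known. Named genes were the members, the 8 other crystallin genes, genes at anchors or TAD borders and nearest neighbours. Features were matched to the GRCm38.p6 gene table with pandas 2.3.3, scipy 1.17.1 and numpy 2.4.6 under Python 3.11.15, and matplotlib 3.10.9 made the figures. An overlap was at least 1 bp, loop size the distance between anchor midpoints, and shared loops had both midpoints within 10 kb. The gene table has no exons. Peaks at anchors and the Ccnyl1 and Crygf loops were set side by side after their positions were seen, as were the promoter letters. Promoters were aligned globally with Biopython 1.88 (match 2, mismatch -1, gap -5 to open and -0.5 to extend). The interval rules were tested on simulated data. Other windows, stricter thresholds and other overlap rules were tried.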

Additional observations from a re-analysis of the deposited data

How the results depend on the processing

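Of 44 alternatives, 31 left the count within 1.5 times that reported, and 13 did not. The nearby loops, 8, 8 and 7 in ES cells, epithelium and fiber cells, fell to 4 and 5 in the first and second at 50 kb (fiber cells kept 5 of 7, within 1.5 times) and rose to 13 in ES cells and 12 in fiber cells at 200 kb. With all 4 false discovery rates below 0.01 they numbered 5 in ES cells and 4 in epithelium, and D630023F18Rik to Idh1 was lost from both. Epithelium also lost Dytn to Akr1cl, the 175 kb Crygn loop and the 235 kb Dgkg loop beside Crygs. ES cells also lost the loops from Fzd5 and Ccnyl1. Fiber cells kept 6 of 7, within 1.5 times, and lost the 140 kb Dgkg loop beside Crygs. Without anchors of 25 kb, which removed both Crygn loops and Dytn to Akr1cl, epithelium had 5, and Dytn to Akr1cl was lost from fiber cells too. The genes spanned by a loop fell from 7 to 2 in epithelium and 2 in fiber cells when loops over 3 Mb were left out. CTCF peaks near the genes fell from 7 to 4 in epithelium and from 15 to 7 in fiber cells at 50 kb. In fiber cells the genes with a peak on the body went from 1 to 3 with bodies widened by 2 kb, which added Crygc and Cryga, and to 0 at a −log10 q-value above 3, which removed the Crygn peak. The count of genes touched by a TAD stayed at 1, 0 and 1 under both alternatives run. No paired analysis was possible because the replicates of each cell type were merged before loops and TADs were called. The depth behind the lists is not in them, so that a loop or peak missing from a list may be below detection.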
